A study of Caenorhabditis elegans with 22 samples.

Results

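The genes skr-7, skr-8, skr-9 and skr-10 of the nematode Caenorhabditis elegans code for proteins related to Skp1, an adaptor of ubiquitin ligases. They were found by symbol in a table of read counts per gene, so there were 4 members among 19598 genes, and all 4 passed the filter on low counts that 16431 genes passed. The members were chosen because their levels over the 7 groups of genotype and treatment were known to differ. Their own levels and differences are therefore given as a description, without p-values. Statements on whether a member passed the threshold on adjusted p are part of this description, and nothing is read from them as a test. Tests are read only for the other Skp1-related genes, for genes of the same pathway and for the neighbours on the chromosomes. The lists of Skp1-related, pathway and marker genes were chosen with earlier results of these data known. Their tests are therefore not independent of these data.

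Skp1 is the small protein that joins a cullin scaffold to an F-box protein in the SCF ubiquitin ligase. The F-box protein picks the substrate, the cullin carries the RING subunit that recruits the ubiquitin-loaded enzyme, and the marked substrate goes to the proteasome. Most animals have a single Skp1 gene, whereas C. elegans has a large family of Skp1-related (skr) genes. The pair skr-1 and skr-2 serves most of the general functions, in embryos, in cell cycle exit and in the germline, and SKR-1 binds the cullin CUL-1. Proteins of the skr-7 to skr-10 branch also bind CUL-1, and RNA interference against these genes has been linked to slow growth and to defects of the posterior body. The branch is made up of close paralogs, and RNA interference against one member can reach the others.

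By Ensembl release 115 on the WBcel235 assembly, each member is a gene with 1 exon and no annotated UTR. skr-7 (WBGene00004813) lies on chromosome V from 4422427 to 4423011 on the + strand and has a coding length of 585 bases. skr-9 (WBGene00004815) lies on chromosome IV from 17163573 to 17164157 on the + strand, and skr-8 (WBGene00004814) follows it from 17165250 to 17165834 on the - strand. Both are 585 bases long, and 1092 bases lie between them. skr-10 (WBGene00004816) stands alone on chromosome IV from 15946807 to 15947385 on the + strand, with 579 bases. How the authors' counting treated reads that match several paralogs is not given in the sources used here, so the split of reads among the members is uncertain to that extent.

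Whole adults were sequenced from N2, the wild-type strain, and from strains carrying the allele ser-7(vq2) or ser-5(vq1), both in genes for serotonin receptors. N2 gave 5 libraries with DMSO (replicates 2 to 6), 3 with 5 mM serotonin and 3 with 50 µM loxapine, a tricyclic antipsychotic drug. For ser-7 there were 3 libraries each of DMSO and serotonin, and for ser-5 there were 3 of DMSO and 2 of loxapine. All groups were grown in liquid culture on killed OP50 bacteria, received 0.12 mM FUDR (a blocker of DNA synthesis that sterilises the animals) as L4 larvae, and were harvested 72 h after treatment began on day 1 of adulthood. Loxapine came in DMSO and serotonin in water, but DMSO was the control of both, so serotonin and its solvent cannot be told apart. Total counts per library lay between 25652111 and 39765014. No label says that replicates came from separate cultures, and the p-values then measure only the spread between these libraries, which may be technical. The N2 DMSO replicates 2 and 5, and 3 and 6, were closer to each other (chi-square per degree of freedom 4.94 and 3.86) than any other pair within a group (11.9 to 140.1). They still differed by more than counting noise and were kept as separate libraries, with a fit on their sums as an alternative. The labels' library numbers fall into 3 runs, called library series A, B and C here. As a check of the strains, ser-7 had 0 to 1 counts per library in the ser-7 strain and 36 to 106 elsewhere, and ser-5 had 5 to 21 counts in the ser-5 strain and 45 to 106 elsewhere.

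In N2, all 4 members were higher with serotonin than with DMSO, by 2.09-fold for skr-7, 2.98-fold for skr-8, 3.53-fold for skr-9 and 2.72-fold for skr-10. With loxapine they were also higher, by 1.72-fold for skr-7, 1.99-fold for skr-8, 2.4-fold for skr-9 and 1.98-fold for skr-10. In the mutant strains the differences were smaller: with serotonin in ser-7 the ratios to DMSO ran from 1.17 to 1.44, and with loxapine in ser-5 from 0.968 to 1.13. For every member the N2 serotonin group had the highest level, the N2 loxapine group came next, and the other 5 groups lay together. Both compounds were set against the same 5 N2 DMSO libraries, so their differences from DMSO share those controls. The RNA is from whole animals, in which more cells of a type and more RNA per cell cannot be told apart.

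**Figure D1:**
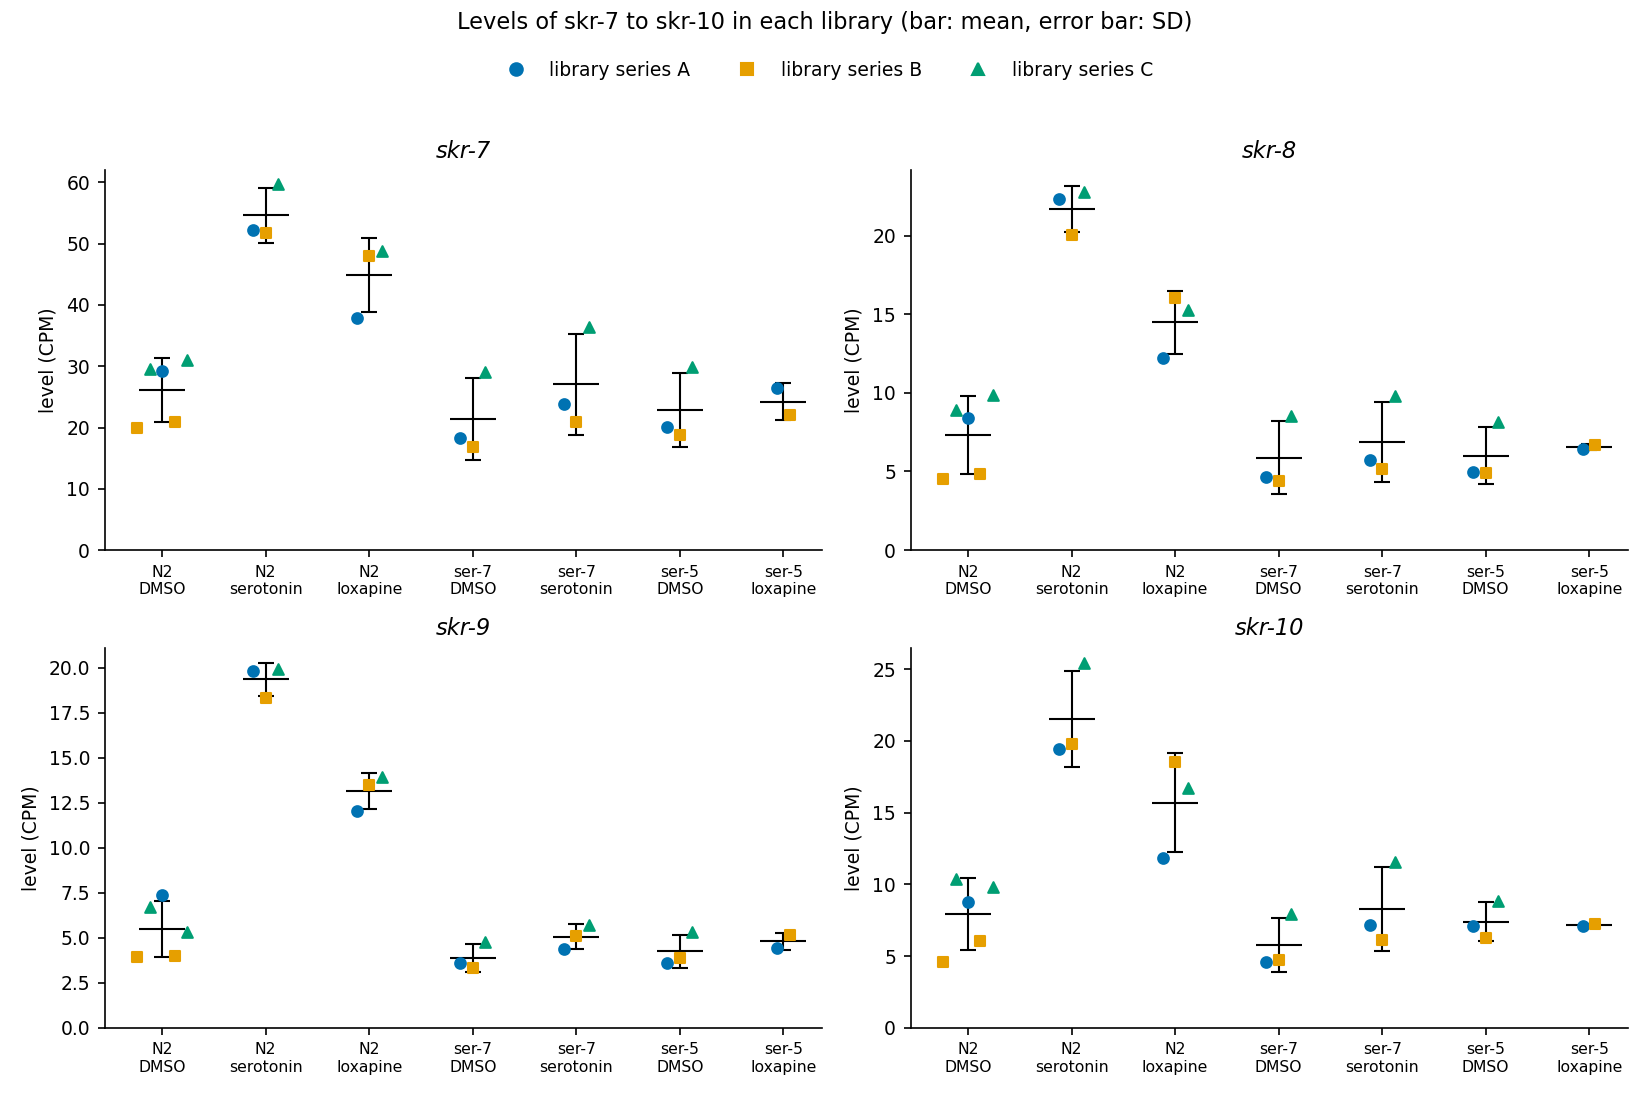
Level of each member in CPM (vertical axis) in every library of the 7 groups, with symbols for the 3 library series, a bar for the group mean and error bars for the SD. For skr-9 the N2 serotonin libraries lie between 18.3 and 19.9 CPM and the N2 loxapine libraries between 12 and 13.9 CPM, while no library of the other 5 groups exceeds 7.4 CPM.

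Levels are given as CPM, the count scaled to a library of 1e6 reads with the total corrected by TMM, a factor that evens out differences in RNA composition. skr-9 had the highest ratios of the 4 for both compounds. Its levels in the N2 DMSO libraries were 3.96, 6.70, 7.4, 3.98 and 5.32 CPM in replicates 2 to 6. With serotonin they were 19.8, 18.3 and 19.9 CPM, and with loxapine 12, 13.5 and 13.9 CPM. Treated and control libraries did not overlap, and the lowest loxapine library stood at 12 CPM against a highest control of 7.4 CPM. These levels rest on 146 to 280 counts per N2 DMSO library, 553 to 774 with serotonin and 423 to 460 with loxapine. The log2 fold change from the model over all genes was 1.82 ± 0.19 (SE) for serotonin and 1.26 ± 0.19 for loxapine.

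skr-8, the gene next to skr-9 on the opposite strand, had N2 DMSO levels of 4.50, 8.91, 8.43, 4.83 and 9.87 CPM in replicates 2 to 6. Its serotonin levels were 22.3, 20.0 and 22.8 CPM and its loxapine levels 12.2, 16.0 and 15.3 CPM. The N2 DMSO libraries fell apart into replicates 2 and 5 at the low end and the other 3 at 8.43 CPM or more, yet the highest of them stayed under the lowest loxapine library. The log2 fold change was 1.57 ± 0.27 (SE) with serotonin and 0.99 ± 0.27 with loxapine.

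skr-10, on the same chromosome but away from that pair, had N2 DMSO levels of 4.61, 10.3, 8.77, 6.07 and 9.84 CPM in replicates 2 to 6. Serotonin libraries had 19.5, 19.8 and 25.4 CPM and loxapine libraries 11.9, 18.5 and 16.7 CPM. The closest approach of the groups was between the loxapine library at 11.9 CPM and the control at 10.3 CPM. Its log2 fold change was 1.44 ± 0.25 (SE) with serotonin and 0.99 ± 0.25 with loxapine.

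skr-7, on chromosome V, was the member with the most reads. Its N2 DMSO levels were 20.0, 29.5, 29.1, 20.9 and 30.9 CPM in replicates 2 to 6. Its serotonin levels were 52.3, 51.8 and 59.7 CPM, and its loxapine levels 37.9, 48.0 and 48.9 CPM. Again the groups did not overlap, and the log2 fold changes were the smallest of the 4, at 1.07 ± 0.21 (SE) with serotonin and 0.78 ± 0.21 with loxapine.

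The median log2 fold change of the 4 members was 1.51 with serotonin and 0.99 with loxapine in N2, beside medians over all tested genes of -0.12 and -0.07. All 4 were past the threshold used throughout, a Benjamini-Hochberg adjusted p of 0.05 in edgeR's quasi-likelihood test, in both comparisons. Of all tested genes, 20.4% were higher past this threshold with serotonin and 16.8% lower, and 10.5% were higher with loxapine and 8.38% lower. Non-overlapping groups with the compound higher were found for 17.1% of all genes with serotonin and for 15.7% with loxapine. Since the members were chosen on these contrasts, nothing is read from their counts. With loxapine the number of members past the threshold was 1 without N2 loxapine replicate 2, 2 without N2 loxapine replicate 3, and 2 with the near-duplicate controls summed. With serotonin it was 4 in every alternative fit. Within each of the 3 library series both compounds stood above DMSO for each member, for skr-9 by 1.41 to 2.19 (log2) with serotonin and 0.70 to 1.75 with loxapine, and for skr-7 by 0.84 to 1.34 and 0.38 to 1.23. The smallest of the loxapine differences, for all 4 members, was in series A, which holds 1 library of each group.

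In the ser-7 strain, the serotonin and DMSO libraries overlapped for each member. skr-9 stood at 3.62, 3.29 and 4.76 CPM with DMSO and at 4.37, 5.10 and 5.72 CPM with serotonin. skr-7 stood at 18.3, 16.8 and 29.1 CPM with DMSO and at 23.8, 20.9 and 36.4 CPM with serotonin. In both genes replicate 3, from library series C, was the highest of its group under both treatments. skr-8 had 4.67, 4.4 and 8.54 CPM with DMSO and 5.72, 5.13 and 9.81 CPM with serotonin. skr-10 had 4.59, 4.74 and 7.92 CPM with DMSO and 7.17, 6.11 and 11.6 CPM with serotonin. Replicate 3 was again the highest of each group. For all 4 genes the serotonin library was above the DMSO library of the same number, and so of the same series, in 3 of 3 pairs. These within-series log2 differences were 0.32 to 0.38 for skr-7, 0.20 to 0.29 for skr-8, 0.26 to 0.62 for skr-9 and 0.36 to 0.64 for skr-10. Because the 4 members varied together, these are not 4 separate results. How many of all genes had 3 of 3 pairs upward was not counted. The fitted log2 fold changes were 0.34 ± 0.24 (SE) for skr-7, 0.23 ± 0.31 for skr-8, 0.38 ± 0.22 for skr-9 and 0.53 ± 0.29 for skr-10, and 0 of 4 members were past the threshold. Over all genes 0% were past it by edgeR, DESeq2 also gave 0, and 643 genes had an unadjusted p under 0.05.

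In the ser-5 strain, loxapine was measured in 2 libraries, 1 each from series A and B, while the DMSO group also had replicate 3, from series C. skr-9 had 3.59, 3.87 and 5.30 CPM with DMSO and 4.45 and 5.14 CPM with loxapine. skr-8 had 4.99, 4.92 and 8.13 CPM with DMSO and 6.43 and 6.69 CPM with loxapine. In both genes the loxapine libraries lay inside the range of the DMSO libraries, in which replicate 3 was again the highest. skr-10 had 7.10, 6.26 and 8.86 CPM with DMSO and 7.08 and 7.22 CPM with loxapine. skr-7 had 20.0, 18.8 and 29.8 CPM with DMSO and 26.4 and 22 CPM with loxapine, so here too the loxapine libraries lay within the range of the controls. The log2 fold changes were 0.08 ± 0.26 (SE) for skr-7, 0.13 ± 0.35 for skr-8, 0.18 ± 0.25 for skr-9 and -0.05 ± 0.33 for skr-10. None of the 4 members was past the threshold, beside 0.0487% of all genes (8 genes by edgeR, 12 by DESeq2, and 321 at an unadjusted p under 0.05). These fits take in DMSO replicate 3, which has no loxapine library of its series. Within series A and B the loxapine library minus the DMSO library was 0.23 to 0.40 (log2) for skr-7, 0.36 to 0.44 for skr-8 and 0.31 to 0.40 for skr-9. For skr-10 it was -0.0031 and 0.20. Without DMSO replicate 3 the log2 fold changes were 0.32 for skr-7, 0.40 for skr-8, 0.36 for skr-9 and 0.10 for skr-10.

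Without compound, the libraries of each mutant strain overlapped those of N2 for each of the 4 members. The log2 differences of ser-7 from N2 in DMSO were -0.29 ± 0.21 (SE) for skr-7, -0.32 ± 0.28 for skr-8, -0.49 ± 0.20 for skr-9 and -0.47 ± 0.26 for skr-10. Those of ser-5 from N2 were -0.19 ± 0.21, -0.29 ± 0.28, -0.37 ± 0.20 and -0.10 ± 0.26 in the same order. None of the 4 was past the threshold in either comparison, beside 1.2% of all genes in ser-7 (197 genes) and 0.00609% in ser-5 (1 gene). Within library series, ser-7 was below N2 in 3 of 3 series for each member. How many of all genes had such agreement was not counted. In ser-5, skr-10 was below N2 in 2 of 3 series and 0.24 above it (log2) in series B, and with the replicate block its difference was 0.16 in place of -0.10. skr-8 in ser-5 was 0.08 above N2 in series B.

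How far the response to a compound differed by strain was fitted as an interaction. For serotonin, the response in ser-7 minus that in N2 was -0.72 ± 0.31 (log2, SE) for skr-7, -1.34 ± 0.41 for skr-8, -1.44 ± 0.30 for skr-9 and -0.92 ± 0.39 for skr-10. skr-8 and skr-9 were past the threshold, beside 9.96% of all genes with a lower response in ser-7. The members were chosen with their levels in these groups known, so nothing is read from this count. This count varied from 1 to 4 over the alternative fits. It was 4 with a replicate block and with a library series block, 1 with the near-duplicate controls summed, and 1 when ser-7 serotonin replicate 1 or 2, ser-7 DMSO replicate 3, N2 serotonin replicate 3 or N2 DMSO replicate 2 or 5 was left out. It was 4 without ser-7 serotonin replicate 3. For loxapine, the response in ser-5 minus that in N2 was -0.70 ± 0.34 for skr-7, -0.86 ± 0.45 for skr-8, -1.08 ± 0.32 for skr-9 and -1.03 ± 0.42 for skr-10. None of the 4 was past the threshold here, beside 0% of all genes by edgeR, 19 genes by DESeq2 and 1561 genes at an unadjusted p under 0.05.

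The order of the groups was the same at its top for the 4 members and not resolved below it. N2 serotonin stood above N2 loxapine by 9.71 CPM for skr-7, 7.21 for skr-8, 6.19 for skr-9 and 5.85 for skr-10, and the ranges of these groups did not overlap in any of the 4. N2 loxapine stood above the third group by 17.8 CPM for skr-7, 7.20 for skr-8, 7.68 for skr-9 and 7.41 for skr-10, again with no overlap. How many of all genes have no overlap between groups ordered in this way was not counted. The members were chosen with their levels known, so nothing is read from these gaps. From there on the neighbouring groups overlapped for each member. The lowest mean was that of ser-7 with DMSO for all 4 genes, at 21.4 ± 6.70 CPM (SD, n = 3) for skr-7 and 3.89 ± 0.771 CPM for skr-9, but each time it overlapped with the next group.

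Set on a scale per kilobase of annotated exon, skr-7 had 44.6 ± 8.93 CPM per kb (SD, n = 5) in N2 with DMSO. This scale compares genes only roughly, since skr-1 and skr-2 have annotated UTRs and the members have none. The split of reads among the members, and so their shares and ratios, is uncertain as said above. The level per kb was 13.7 ± 4.29 for skr-10, 12.5 ± 4.22 for skr-8 and 9.35 ± 2.67 for skr-9. With serotonin these levels were 93.4 ± 7.59 CPM per kb (SD, n = 3) for skr-7, 37.2 ± 5.77 for skr-10, 37.1 ± 2.50 for skr-8 and 33.1 ± 1.54 for skr-9. On the same scale skr-1, the general Skp1 gene, had 369.9 ± 28.6 CPM per kb with DMSO and 364.8 ± 17.3 with serotonin, and its sister skr-2 had 154.1 ± 5.30 and 216.3 ± 59.0. The members thus lay under skr-1 in both groups. The share of skr-7 in the summed CPM of the 4 members was 56.3 ± 3.03% (SD, n = 5) in N2 with DMSO, 46.6 ± 0.615% with serotonin and 50.9 ± 0.822% with loxapine, and it lay between 56.3% and 58.0% on average in the mutant groups. The share of skr-9 in N2 was 11.7 ± 1.55% with DMSO, and it was 16.5 ± 0.919% in the serotonin and 15.0 ± 1.14% in the loxapine libraries. The ratio of skr-7 to skr-9 counts was 4.89 ± 0.735 with DMSO, 2.82 ± 0.181 with serotonin and 3.41 ± 0.224 with loxapine, and the highest ratio with either compound (3.56) lay under the lowest with DMSO (3.94).

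The 4 members varied together from library to library. Pearson's r between 2 members over the 22 libraries ran from 0.944 for skr-9 with skr-10 to 0.985 for skr-7 with skr-8, as a description in which the points share library, treatment and strain. The r of the deviations from the group means ran from 0.769 for skr-7 with skr-9 to 0.959 for skr-7 with skr-8. These deviations followed the library series. In series C, 7 of 7 libraries lay above their group mean for every member, by a median of 0.27 (log2) for skr-7, 0.47 for skr-8, 0.18 for skr-9 and 0.37 for skr-10. In series B, 1 of 8 libraries lay above it for skr-7, 2 of 8 for skr-8, 3 of 8 for skr-9 and 2 of 8 for skr-10. The spread within groups, as a pooled SD of log2 CPM, was 0.27 for skr-9, 0.31 for skr-7, 0.39 for skr-10 and 0.42 for skr-8. What the series differ in is not given in the labels, and its part in the levels was not tested beyond the within-series values and the series block.

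**Figure D2:**
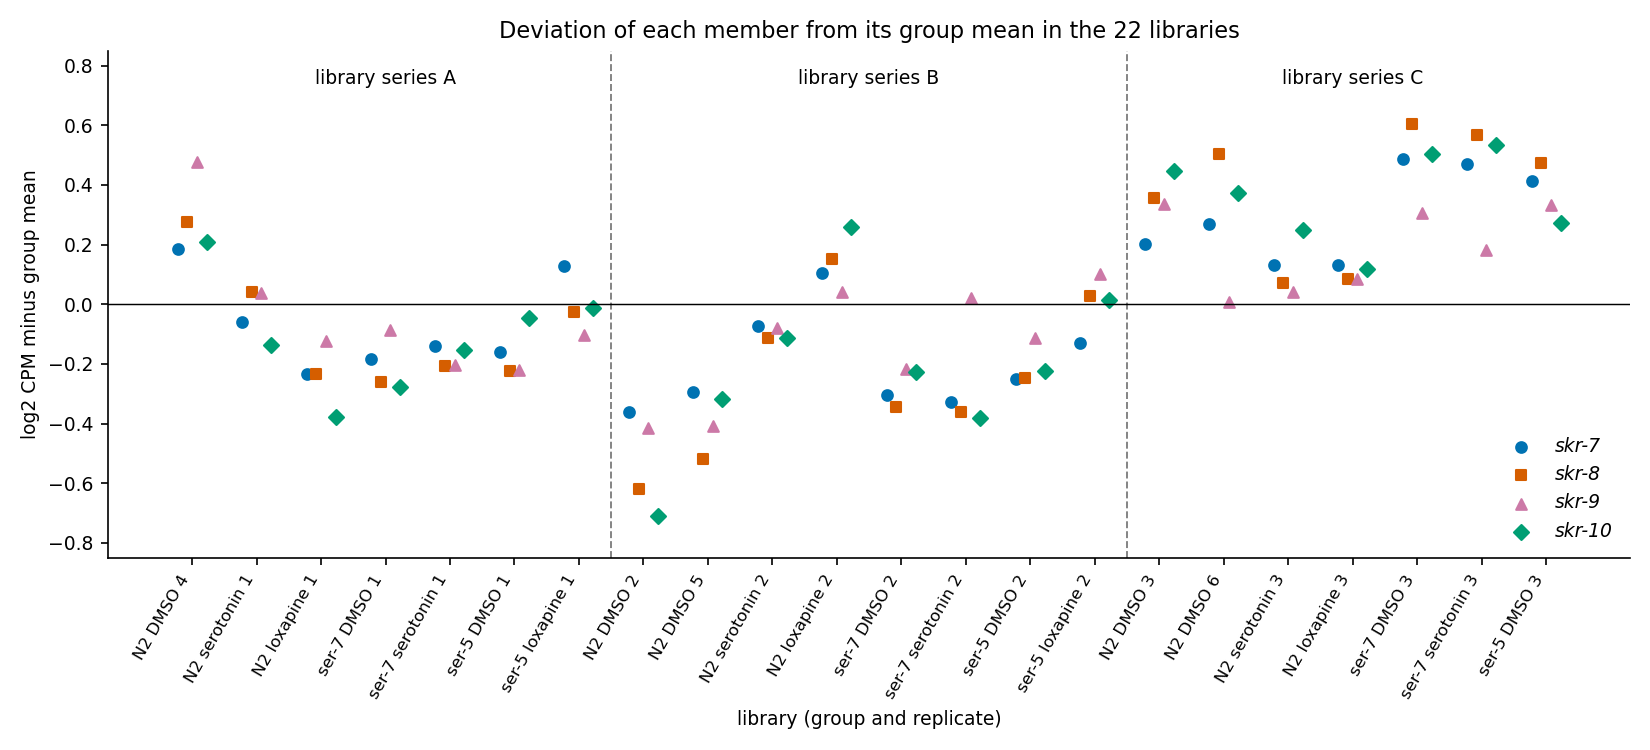
Deviation of each member from its group mean (log2 CPM, vertical axis) in each of the 22 libraries, ordered by library series. All 28 points of series C lie above 0, and the lowest points are those of N2 DMSO replicates 2 and 5 of series B, down to -0.71 for skr-10.

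The other Skp1-related genes did not move as one in N2. Of 17 listed, 16 were in the table and 15 were tested; skr-6, with 0 to 7 counts per library, did not pass the filter, and skr-11 was not analysed here. With serotonin 6 of the 15 rose and 2 fell, with a median log2 fold change of 0.06 beside -0.12 for all genes. Of all tested genes, 20.4% rose and 16.8% fell. The count of 8 called genes was 3 without N2 serotonin replicate 3 and 13 with a library series block. The highest changes were those of skr-14, at 1.05 ± 0.27 (log2, SE; edgeR adjusted p = 0.00455), skr-15, at 1.03 ± 0.16 (adjusted p = 0.000108), and skr-13, at 0.90 ± 0.29 (adjusted p = 0.0185). skr-13 and skr-14 lie next to members on the chromosomes. skr-13 was not past the threshold without N2 serotonin replicate 3 (adjusted p = 0.0809).

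**Figure D3:**
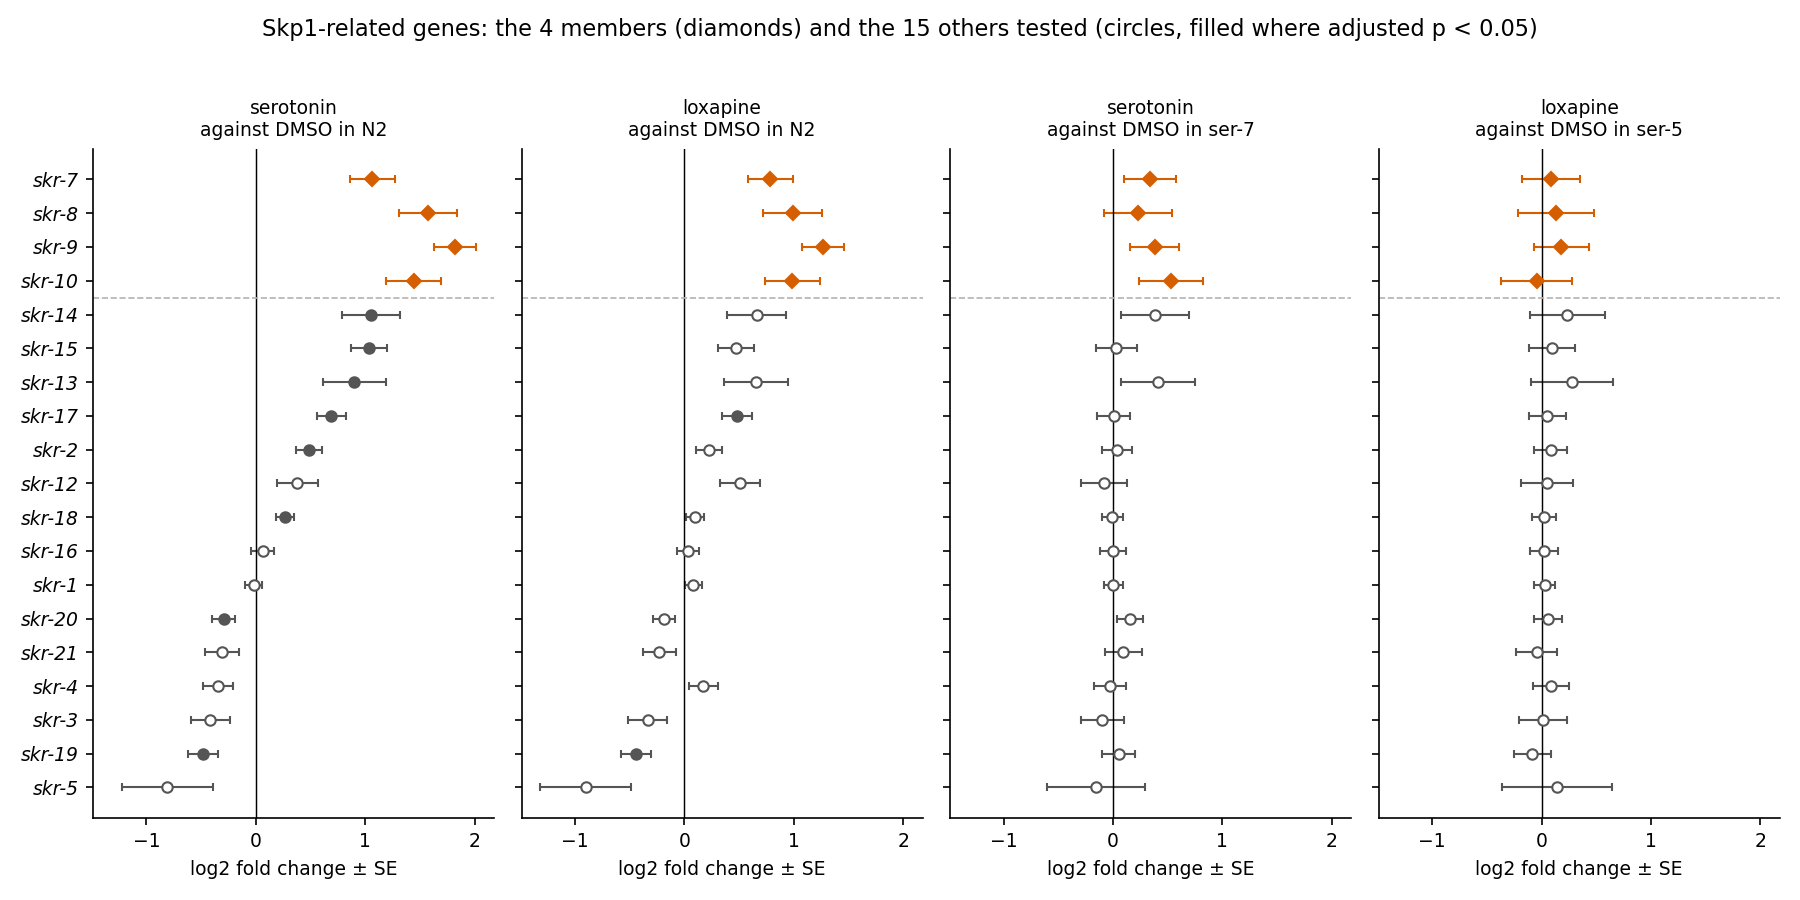
Log2 fold change with its SE (horizontal axis) of the 4 members (diamonds) and of the 15 other tested Skp1-related genes (circles, filled past an adjusted p of 0.05) for each compound against DMSO, in N2 and in the mutant strains. In N2 with serotonin the members run from 1.07 to 1.82, the other genes from -0.81 for skr-5 to 1.05 for skr-14, and no circle is filled in the mutant panels. Over all tested genes 0% were past the threshold with serotonin in ser-7 and 0.0487% with loxapine in ser-5.

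Levels of skr-14 in the N2 DMSO libraries were 7.83, 14.8, 13.2, 9.27 and 13.6 CPM in replicates 2 to 6, and 19.3, 24.0 and 29.7 CPM with serotonin. Levels of skr-15, on chromosome II, were 8.08, 11.3, 11.2, 9.05 and 9.0 CPM with DMSO and 17.4, 15.8 and 26.7 CPM with serotonin. In both genes the serotonin libraries stood above all controls. skr-17, on chromosome II, rose by 0.69 ± 0.13 (adjusted p = 0.000504) and skr-2, the sister of skr-1, by 0.49 ± 0.12 (adjusted p = 0.00322). skr-18 rose by 0.27 ± 0.08 (adjusted p = 0.0171). The genes that fell were skr-19, at -0.48 ± 0.14 (adjusted p = 0.00924), and skr-20, at -0.29 ± 0.10 (adjusted p = 0.0319), which lie beside each other on the X chromosome. Without N2 serotonin replicate 3, skr-2, skr-18, skr-19 and skr-20 were not past the threshold (adjusted p = 0.0673, 0.107, 0.0606 and 0.210). Over all alternatives skr-18 kept its call in 10 of 15 fits and skr-20 in 8 of 15. skr-1 was at -0.02 ± 0.08 (adjusted p = 0.864).

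Beside 10.5% of all tested genes that rose and 8.38% that fell with loxapine in N2, 1 of the 15 rose and 1 fell. These were skr-17, at 0.48 ± 0.13 (log2, SE; edgeR adjusted p = 0.0184), and skr-19, at -0.44 ± 0.14 (adjusted p = 0.0315). Without N2 loxapine replicate 2 or N2 DMSO replicate 2 neither was past the threshold, and over all alternatives skr-17 kept its call in 12 of 15 fits and skr-19 in 9 of 15. The count of 2 varied from 0 to 8. skr-14, at 0.66 ± 0.27 (adjusted p = 0.0909), skr-13, at 0.65 ± 0.29 (adjusted p = 0.120), and skr-12, at 0.51 ± 0.19 (adjusted p = 0.0597), did not pass the test. In each of the comparisons within the mutant strains and between strains in DMSO, 0 of 15 were called by edgeR, 0 by DESeq2 and 0 at an unadjusted p under 0.05. Over all tested genes edgeR called 0% with serotonin in ser-7 and 0.0487% with loxapine in ser-5. Against N2 in DMSO it called 1.2% for ser-7 and 0.00609% for ser-5. For serotonin, the response in ser-7 minus that in N2 was lower for skr-15, at -1.0 ± 0.25 (adjusted p = 0.0128), and for skr-17, at -0.69 ± 0.20 (adjusted p = 0.0274). The latter was not past the threshold without N2 serotonin replicate 3 (adjusted p = 0.113). Over all tested genes, 9.96% had a lower response in ser-7 past the threshold.

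As a description over the 22 libraries, which share treatment and series, the log2 CPM of skr-14, skr-13, skr-15 and skr-17 had an r of 0.952, 0.94, 0.921 and 0.909 with the mean standardised log2 CPM of the members. At the other end stood skr-5, with -0.840, and skr-3, with -0.870. The genes skr-3, skr-4 and skr-5 act with the cullin CUL-6 in the response to intracellular pathogens. With serotonin in N2 they stood at -0.42 ± 0.18, -0.35 ± 0.14 and -0.81 ± 0.42 (adjusted p = 0.0728, 0.0501 and 0.140). Of all tested genes, 20.4% rose with serotonin in N2 and 10.5% with loxapine. In the list of 29 tested genes of that response, 1 rose with serotonin and 0 with loxapine, where the list median was -0.63 and 1 gene had an unadjusted p under 0.05 (0 by DESeq2). The gene that rose was drh-1, an RNA helicase of antiviral defence, at 0.57 ± 0.12 (adjusted p = 0.00099).

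Of 8 cullin and RING genes tested, some of which serve ligases without Skp1, 6 rose with serotonin in N2 and 0 fell, with a list median of 0.34 (log2) beside -0.12 for all genes. Of all tested genes, 20.4% rose and 16.8% fell with serotonin, and 10.5% rose and 8.38% fell with loxapine. cul-1, the scaffold that SKR proteins bind, rose by 0.38 ± 0.09 (SE; edgeR adjusted p = 0.00224), from 124.8 ± 10.3 CPM (SD, n = 5) to 163.0 ± 15.0 CPM (n = 3). cul-5, which works with SOCS-box adaptors instead of Skp1, rose by 0.42 ± 0.10 (adjusted p = 0.00262) and rbx-2, a RING subunit, by 0.39 ± 0.11 (adjusted p = 0.00739). The rbx-2 call was lost without N2 serotonin replicate 3 (adjusted p = 0.13). cul-6 was at -0.32 ± 0.24 (adjusted p = 0.315). With loxapine 2 of the 8 rose, cul-5 by 0.30 ± 0.10 (adjusted p = 0.0451) and cul-4, the scaffold of ligases that use DDB1, by 0.28 ± 0.09 (adjusted p = 0.0350). Neither held without N2 loxapine replicate 2 or 3, or with the near-duplicate controls summed. Over all alternatives cul-5 kept its call in 7 of 15 fits and cul-4 in 8 of 15.

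Genes that switch cullins on and off gave a like count. NED-8 is the ubiquitin-like protein attached to cullins, and the COP9 signalosome takes it off again. Of 12 such genes tested, 10 rose with serotonin and 0 fell, beside 20.4% and 16.8% of all tested genes. The list median was 0.41 (log2). csn-3 and csn-1, subunits of the signalosome, rose by 0.57 ± 0.11 (SE; adjusted p = 0.000385) and 0.48 ± 0.10 (adjusted p = 0.000819), and ubc-12, the enzyme that conjugates NED-8, by 0.53 ± 0.11 (adjusted p = 0.0011). With loxapine 6 rose and 0 fell, beside 10.5% and 8.38% of all tested genes. Among the 6 were csn-3, at 0.40 ± 0.11 (adjusted p = 0.0152), and rfl-1, a subunit of the NED-8 activating enzyme, at 0.36 ± 0.10 (adjusted p = 0.0143). Without N2 loxapine replicate 2 the loxapine calls of csn-3, csn-1 and rfl-1 were lost (adjusted p = 0.122, 0.124 and 0.0841). Over all alternatives csn-3 kept its call in 13 of 15 fits, csn-1 in 10 and rfl-1 in 13.

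Among 8 F-box genes with a named role, 6 rose with serotonin and 0 fell, beside 20.4% and 16.8% of all tested genes. The list median was 0.52 (log2). prom-1, which acts in meiotic chromosome pairing, rose by 0.92 ± 0.14 (SE; adjusted p = 7.0e-05). skpt-1, the homolog of Skp2, rose by 0.78 ± 0.13 (adjusted p = 0.000168) and fog-2, which acts with GLD-1 in germline sex determination, by 0.71 ± 0.12 (adjusted p = 0.000139). Beside 10.5% of all tested genes, 4 of the 8 rose with loxapine, led by prom-1 at 0.66 ± 0.14 (adjusted p = 0.00433), fog-2 at 0.49 ± 0.12 (adjusted p = 0.00869) and mec-15, which acts in touch neurons, at 0.48 ± 0.12 (adjusted p = 0.0101). Without N2 loxapine replicate 2 those of fog-2 and mec-15 were lost (adjusted p = 0.0598 and 0.0881). Serotonin in ser-7 and loxapine in ser-5 gave 0 calls in each of these lists by edgeR, 0 by DESeq2 and 0 at an unadjusted p under 0.05. Over all tested genes edgeR called 0% with serotonin in ser-7 and 0.0487% with loxapine in ser-5, so these counts say nothing particular about the lists.

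The serotonin response was lower in ser-7 than in N2 for 4 of the 8 F-box genes, 5 of the 12 neddylation and signalosome genes and 1 of the 8 cullin and RING genes. Over all tested genes the share was 9.96%. For prom-1 the difference was -1.02 ± 0.21 (log2, SE; edgeR adjusted p = 0.00601), for skpt-1 -0.87 ± 0.20 (adjusted p = 0.00843) and for csn-3 -0.60 ± 0.16 (adjusted p = 0.0178). For cul-5 it was -0.47 ± 0.15 (adjusted p = 0.0392). Without N2 serotonin replicate 3, csn-3 (adjusted p = 0.0751) and cul-5 (adjusted p = 0.111) were not past the threshold, and cul-5 kept its call in 8 of 21 alternative fits. The loxapine response in ser-5 minus that in N2 gave 0 calls in each of these 3 lists by edgeR and by DESeq2, and 1 gene of the neddylation list had an unadjusted p under 0.05. Over all tested genes edgeR called 0% in that comparison, and DESeq2 called 19 genes.

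**Figure D4:**
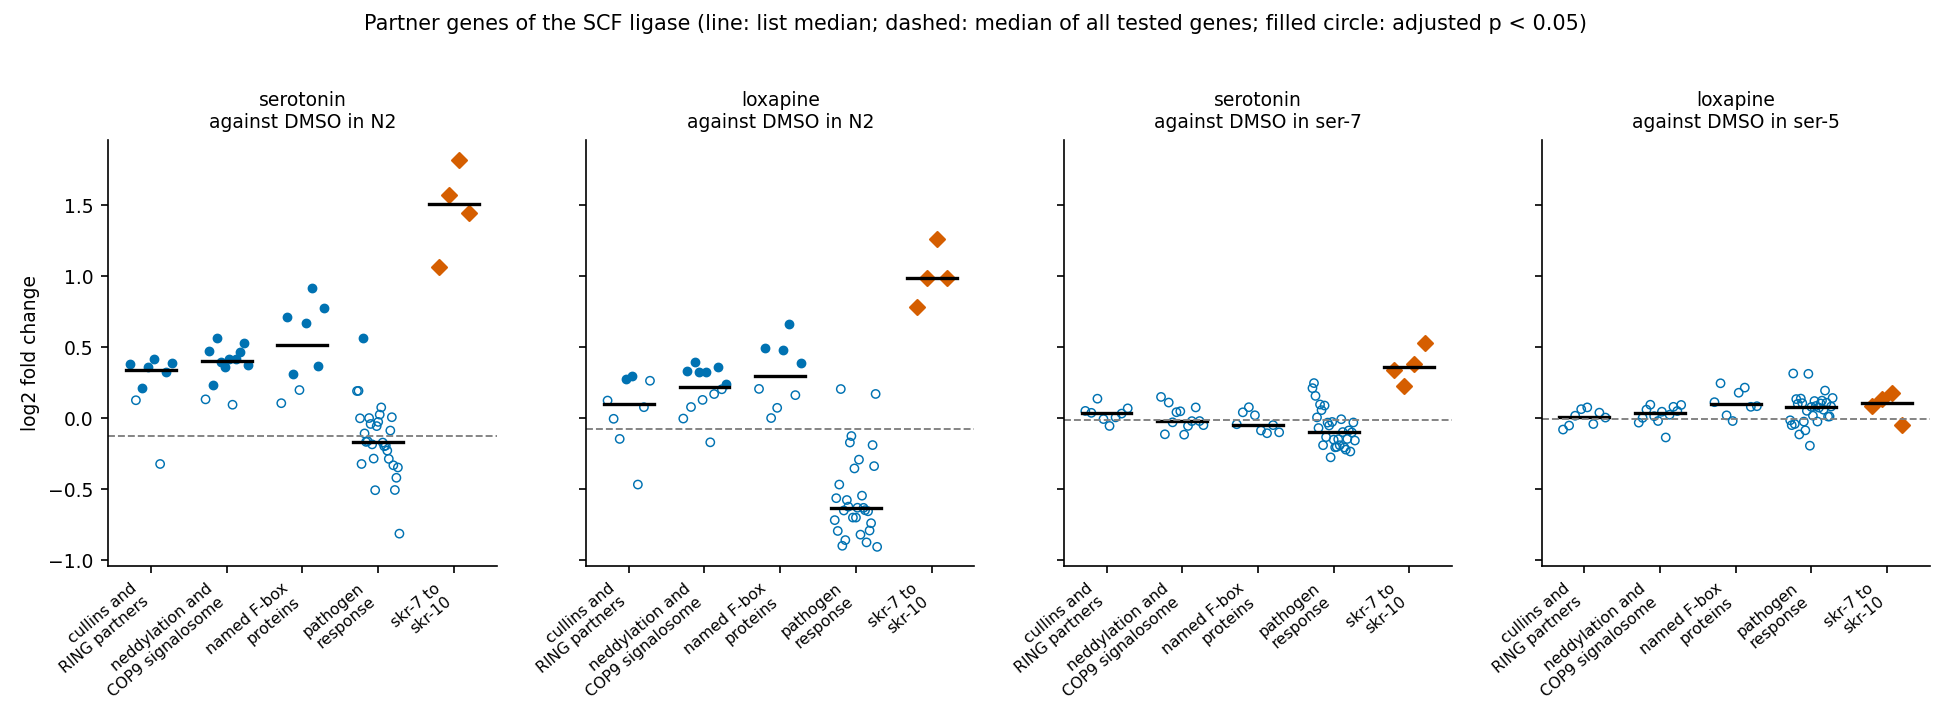
Log2 fold change (vertical axis) of each tested gene of 4 lists and of the 4 members, for each compound against DMSO in N2 and in the mutant strains; filled circles are past an adjusted p of 0.05, solid lines are list medians and the dashed line is the median of all tested genes. In N2 with serotonin the medians are 0.34 for cullins and RING partners, 0.41 for neddylation and the COP9 signalosome, 0.52 for named F-box genes, -0.17 for the pathogen response and 1.51 for the members.

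Markers of tissues moved in the same comparisons. All 7 germline markers rose with serotonin in N2 and 5 of 7 with loxapine, and the serotonin response of 5 of 7 was lower in ser-7 than in N2. Over all tested genes these shares were 20.4%, 10.5% and 9.96%. The oocyte gene puf-5, which codes for an RNA-binding protein, rose by 1.04 ± 0.16 (log2, SE; edgeR adjusted p = 9.2e-05) with serotonin. The summed level of the 7 was 1890 to 2275 CPM in N2 with DMSO, 2687 to 4271 CPM with serotonin and 2489 to 2792 CPM with loxapine. It was 1526 to 1862 CPM in ser-7 with DMSO and 1600 to 1746 CPM with serotonin, and 1614 to 1847 CPM in ser-5 with DMSO and 1721 to 1979 CPM with loxapine. No germline marker was at 0 in any group. The serotonin and loxapine groups of N2 therefore had both the highest germline sums and the highest levels of the members, and the part of the germline in the members' levels was not tested.

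Of 5 body wall muscle markers, 4 fell with each compound in N2, and their sum was 2682 to 3250 CPM with DMSO, 1328 to 1674 CPM with serotonin and 1331 to 1874 CPM with loxapine. Of all tested genes, 16.8% fell with serotonin in N2 and 8.38% with loxapine. Of 5 pharynx markers 4 fell with serotonin and 2 with loxapine, and of 6 neuronal markers 3 and 2 fell. Under DMSO, serotonin and loxapine, in that order, their sums in N2 were 124 to 181, 59.1 to 72.2 and 72.5 to 107 CPM for the pharynx and 599 to 747, 478 to 600 and 477 to 594 CPM for neurons. In the hypodermis list 1 of 5 fell with each compound, and of 4 tested intestinal markers none passed the test with either (unadjusted p under 0.05 for 2 and 0, DESeq2 0 for both). The intestinal sum reached 4564 CPM in 1 N2 serotonin library, against 1564 CPM at most with DMSO. The 4 tested sperm markers gave 0 calls with either compound (0 at an unadjusted p under 0.05 and 0 by DESeq2), with sums of 1.82 to 7.11 CPM in N2 over all 3 treatments, and msp-3 and msp-10 were at 0 in ser-7 with serotonin. The part of these tissues in the members' levels was not tested.

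Of the neighbours on the chromosomes, some rose and some fell with each compound in N2. Of the 30 nearest protein-coding genes, 5 on each side of skr-7, of the skr-8 and skr-9 pair and of skr-10, 20 were tested. With serotonin in N2 3 of them rose and 2 fell, beside 20.4% and 16.8% of all tested genes. With loxapine 2 rose and 1 fell, beside 10.5% and 8.38%. skr-14, which lies 0.852 kb before skr-7 on the - strand (chromosome V, 4421069 to 4421575), and skr-13, which lies 0.958 kb before skr-9 on the - strand (chromosome IV, 17162097 to 17162615), were among those that rose with serotonin. skr-12, 1.44 kb beyond skr-8 on the + strand (chromosome IV, 17167274 to 17167792), stood at 0.38 ± 0.19 (log2, SE; edgeR adjusted p = 0.117). Y116A8C.38, 29.9 kb before the pair, rose by 1.43 ± 0.36 (adjusted p = 0.00374). flp-17, a neuropeptide gene 24.4 kb beyond it, fell by 0.53 ± 0.16 (adjusted p = 0.0123), and Y47D7A.13, 12 kb beyond skr-7, fell by 1.47 ± 0.39 (adjusted p = 0.0067).

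With loxapine, C52D10.3, 10.6 kb beyond the pair, rose by 1.12 ± 0.27 (log2, SE; edgeR adjusted p = 0.00909), with the collagen gene col-138 inside its span on the other strand. Y105C5B.15, 4.55 kb beyond skr-10, rose by 0.89 ± 0.26 (adjusted p = 0.0277), and Y47D7A.13 fell by 1.68 ± 0.40 (adjusted p = 0.00953). With serotonin the 8 tested neighbours of skr-10 had log2 fold changes from -0.36 to 0.47, with SEs from 0.17 to 0.87. Their lowest edgeR adjusted p was 0.397. skr-10 itself had a log2 fold change of 1.44, but it was chosen with its levels known, so nothing is read from the difference.

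**Figure D5:**
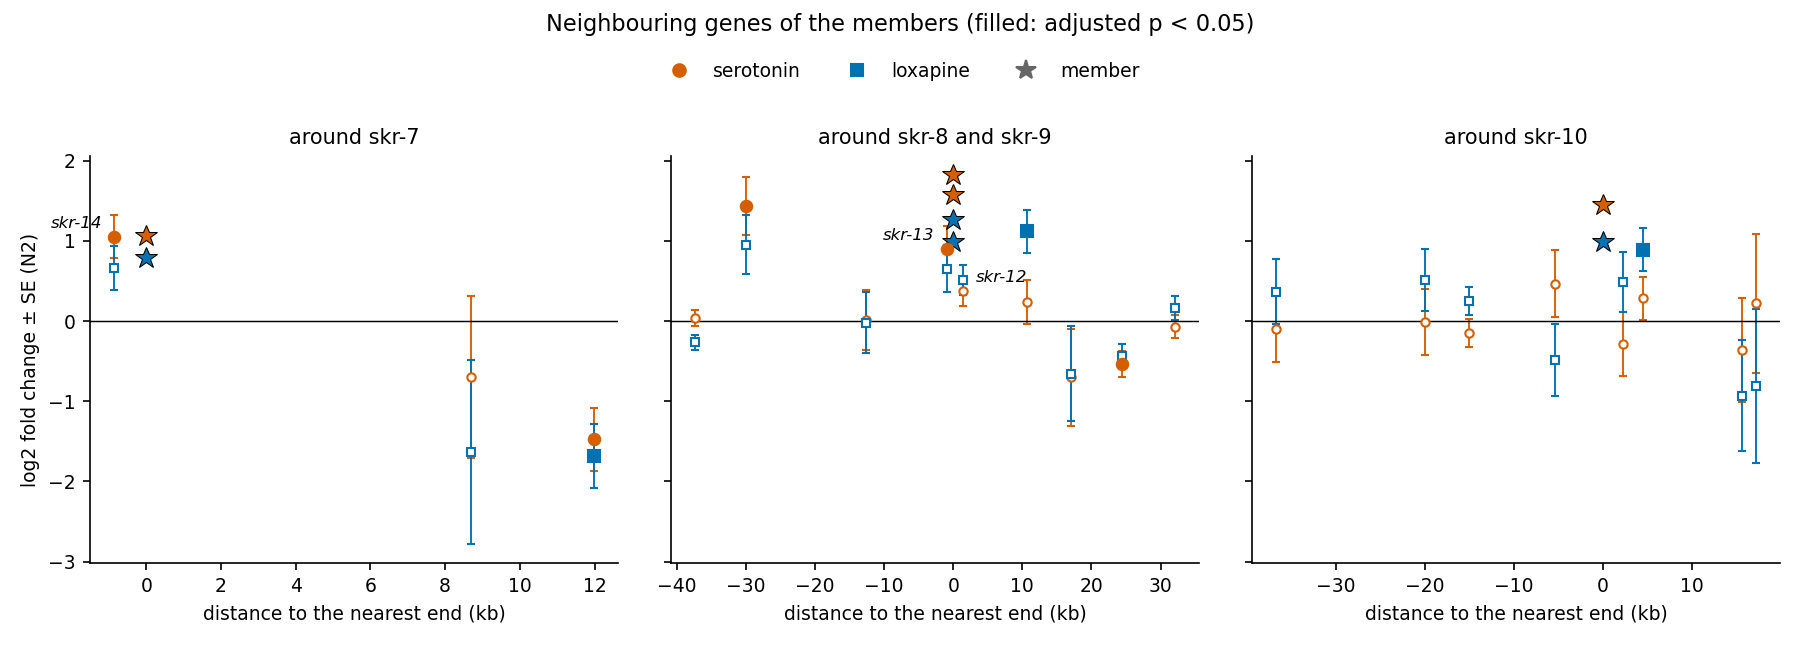
Log2 fold change with its SE (vertical axis) of the tested neighbours by distance to the nearest end of the member or pair (horizontal axis, kb), for serotonin (circles) and loxapine (squares) in N2, filled past an adjusted p of 0.05, with the members as stars at 0. skr-14 beside skr-7 and skr-13 beside skr-9 lie at 1.05 and 0.90 with serotonin, and the neighbours of skr-10 then lie between -0.36 and 0.47.

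The genes whose levels over the 22 libraries were most like the members were found among 12993 genes (mean log2 CPM 0 or more), by Pearson's r with the mean standardised log2 CPM of the 4. The median r of these genes was -0.09, and 132 had an r over 0.9. The 8 highest were Y106G6D.2 (0.971), R02C2.1 (0.969), fbxb-17 (0.967), dsl-2 (0.965), btb-10 (0.964), R11.4 (0.963), sepa-1 (0.962) and Y39G10AL.1 (0.962). By its name fbxb-17 belongs to the F-box genes, and btb-10 to the BTB domain genes, some of whose products are adaptors of CUL-3 ligases. dsl-2 belongs to the family of Notch ligands, and sepa-1 codes for an adaptor that brings P granule proteins of somatic cells of the embryo to autophagy. With serotonin in N2 the log2 fold change was 2.09 ± 0.25 (SE) for fbxb-17, 1.68 ± 0.18 for dsl-2, 1.77 ± 0.22 for btb-10 and 1.58 ± 0.16 for sepa-1. With loxapine it was 1.18 ± 0.25, 1.09 ± 0.18, 1.33 ± 0.22 and 1.05 ± 0.16 in the same order. With serotonin in ser-7 the 4 stood at 0.35, 0.40, 0.19 and 0.24, and with loxapine in ser-5 at -0.36, -0.05, -0.07 and -0.10. They were picked for their likeness, so these values are a description.

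For each member alone the 3 most like genes differed in part. For skr-7 they were its neighbour skr-14 (r = 0.966), btb-11 (0.966) and Y106G6D.2 (0.962). For skr-8 they were Y39G10AL.1 (0.962), Y106G6D.2 (0.961) and fbxb-17 (0.961). For skr-9 they were fbxb-17 (0.973), dsl-2 (0.972) and the T-box gene tbx-11 (0.972), and for skr-10 R02C2.1 (0.964), vet-2 (0.962) and B0281.5 (0.962). The libraries behind these values share treatment, strain and library series.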

How the data were processed

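Whole adult C. elegans RNA was read as single reads of 100 nucleotides, as the labels' protocols state. What the authors deposited is 1 table of unscaled integer counts, with genes in rows and libraries in columns. Which aligner, counting program, strand setting and genome build were used is not given in the sources used here. Of 19598 gene identifiers, 19578 were found in a table of gene names, and positions are those of Ensembl release 115 (WBcel235), joined by identifier.

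In R 4.3.3, edgeR 4.0.16 kept 16431 genes (minimum count 10, minimum total 15), applied TMM scaling and, over 22 libraries, fitted 1 mean for each of 7 groups in its quasi-likelihood model (robust). P-values were adjusted by Benjamini-Hochberg over all tested genes, with a threshold of 0.05, and an SE is the absolute log2 fold change divided by sqrt(F). Log2 CPM used a prior count of 2. The script was also tested on simulated data. Genes are named as the members, called Skp1-related genes, up to 3 called genes per list and comparison with the largest changes, the 5 nearest genes on each side, and the 8 and 3 most alike. The members and the 12 lists were chosen with earlier results of these data known. skr-11, csn-7, csn-8, pals-36, vit-2, vit-6 and col-140 of these lists were not analysed here.

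Alternatives were DESeq2 1.42.0, RLE size factors, no filter, a fit of only the compared groups, near-duplicate controls summed, blocks for the replicate or for the library series, and dropping each library in turn. The replicate block is the replicate number in the library titles (the tag), which pairs libraries of the same number across groups. The titles do not say what libraries of the same number share. The deviations of 51 same-tag pairs from their group means correlated with a median of 0.230 (-0.0959 to 0.647), and 38 exceeded 0.1. Tags r4 to r6 mark single N2 DMSO libraries, which then carry no weight.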

Additional observations from a re-analysis of the deposited data

Results flagged for a closer look

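Of 20 Skp1-related genes examined in N2 with DMSO, 1 had a library far from the others: skr-21 stood at 182.9 CPM in replicate 3 against 154.5 to 160.9 CPM in the other 4, a gap of 0.775 of the group's whole range. Chance alone marks about 1 group in 20. The serotonin response differed between strains for skr-15, by -1.0 ± 0.25 (log2, SE; ser-7 minus N2; edgeR adjusted p = 0.0128), and for skr-17, by -0.69 ± 0.20 (adjusted p = 0.0274). Over all tested genes, 9.96% had a lower serotonin response in ser-7 past the threshold. skr-15 kept its call in 21 of 21 alternative fits and skr-17 in 13 of 21.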

How the results depend on the processing

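The log2 fold changes of skr-7 to skr-10 gave 496 values over 8 comparisons and the alternatives, none of which reversed the sign of a called difference. Whether a member was past the threshold did vary, as given at the end of this paragraph. With serotonin in N2 they ranged from 0.98 to 1.24 for skr-7, 1.44 to 1.87 for skr-8, 1.72 to 1.96 for skr-9 and 1.30 to 1.70 for skr-10. With serotonin in ser-7 they ranged from 0.07 to 0.63, -0.11 to 0.60, 0.27 to 0.55 and 0.21 to 0.82 in the same order. With loxapine in ser-5 they ranged from -0.07 to 0.32, 0.01 to 0.40, 0.06 to 0.36 and -0.16 to 0.15. The serotonin response, ser-7 minus N2, ranged from -1.0 to -0.44, -1.68 to -0.97, -1.58 to -1.27 and -1.23 to -0.62. The loxapine response, ser-5 minus N2, ranged from -0.87 to -0.46, -0.99 to -0.59, -1.22 to -0.90 and -1.20 to -0.89. In both mutant strains, leaving out DMSO replicate 3 gave the highest of these values, except for skr-10 with loxapine in ser-5. Leaving out ser-7 serotonin replicate 3 gave the lowest of the ser-7 values, except for skr-9. With loxapine in N2 the count of 4 members past the threshold was 2 with the near-duplicate controls summed and 1 to 4 leaving out each library. In the serotonin response, ser-7 minus N2, the count of 2 was 1 without a filter, 1 with the compared groups only, 4 with the replicate block, 4 with the library series block, 1 with the near-duplicates summed and 1 to 4 leaving out each library.

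For the other Skp1-related genes, the 8 calls with serotonin in N2 were 13 with the library series block and 3 to 12 leaving out each library. The 2 calls with loxapine in N2 were 4 by DESeq2, 5 with the compared groups only, 6 with the replicate block, 8 with the library series block, 0 with the near-duplicates summed and 0 to 5 leaving out each library. The 2 calls in the serotonin response, ser-7 minus N2, were 1 with the compared groups only, 5 with the replicate block, 5 with the library series block, 1 with the near-duplicates summed and 1 to 5 leaving out each library. The causes were not tested.

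Over all genes, the 6102 calls with serotonin in N2 ranged from 3897 to 7659, the 3101 with loxapine from 556 to 5275, the 197 of ser-7 against N2 from 2 to 848, and the 2565 of the serotonin response, ser-7 minus N2, from 1203 to 4490. The median of all genes with serotonin in N2 was -0.12, -0.06 with RLE size factors and -0.21 without a filter. Higher and lower calls were 3346 and 2756, with RLE 3779 and 2305, and without a filter 2632 and 3066. With loxapine, summing the near-duplicates left 586 higher and 543 lower of 1724 and 1377.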
